A study of Mus musculus with 60 samples.

Results

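Poly-A RNA of whole brain was compared between 3 Ftsj1-deficient male mice (genotype Ftsj1_DF in the labels) and 3 wildtype males (WT), all 4 months old. These 6 libraries are part of 60 in the series, and all 55290 named genes of the brain poly-A comparison were taken. Mice 1646 (WT) and 1647 (Ftsj1_DF) were brothers, and so were 1653 and 1655 (WT) with 1654 and 1656 (Ftsj1_DF), so that each of the 2 litters held both genotypes. The mice had free access to food and received no treatment, and the 6 brain libraries share 1 batch label. The sources used here do not state what was deleted in the Ftsj1_DF mice, or whether in all cells. The question, from the title of the series, is which RNAs differ when Ftsj1 is deficient.

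FTSJ1 is a methyltransferase that places a methyl group on the ribose of nucleotides in the anticodon loop of several tRNAs. It works with partner proteins, THADA for one position and WDR6 for the other, and loss of the human gene on the X chromosome causes intellectual disability. Immediate early genes, the group that dominates the comparison, are transcribed in neurons within minutes of synaptic input and calcium entry, without new protein being made first. The kinases of that pathway phosphorylate CREB and SRF, factors already present on the promoters, and the products are transcription factors such as FOS and EGR4 or proteins that act at the synapse such as ARC. In the integrated stress response, kinases that phosphorylate eIF2 lower translation in general while ATF4 is translated more and switches on its target genes.

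The authors' deposited table gives, for each gene, a mean level over the 6 libraries, a log2 fold change with its standard error, a p and an adjusted p from DESeq2, and no value per mouse. Every level, log2 fold change (± its standard error), p and adjusted p below is a value of that table, with n = 3 against 3 mice, unless a computation is named. The level is a normalised read count that is not divided by gene length. A fold change above 0 means a higher level in Ftsj1_DF. A gene is said to have risen or fallen where the authors' adjusted p was under 0.05, and is otherwise given by its values. Where a level per genotype is printed, it was computed from the mean level and the fold change and is approximate.

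Of the 55290 genes, 21020 were listed at 0, 34264 had a p and 21406 had an adjusted p, the lowest at a mean level of 21.6. Among these 21406 tested genes 13 passed, or 0.0607%, with 3 that rose (0.014%) and 10 that fell (0.0467%). An unadjusted p under 0.05 was found for 630 genes (2.94%), of which 346 were higher (1.62%) and 284 lower (1.33%). With no gene changed about 1070 would be expected, so small p-values were fewer than that. The log2 fold changes of the tested genes were centred, with a median of 0.0022 and 50.8% above 0 against 49.2% below. Recovered size factors, which scale each library by its depth, were 2.52, 1.25 and 0.752 for the WT and 1.95, 0.565 and 0.390 for the Ftsj1_DF libraries, a range of 6.46-fold. Which mouse has which factor is unknown, and the shallowest pair are both Ftsj1_DF. Precision followed the level, since the median standard error was 0.59 under a mean level of 100 and 0.078 above 10000.

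**Figure D1:**
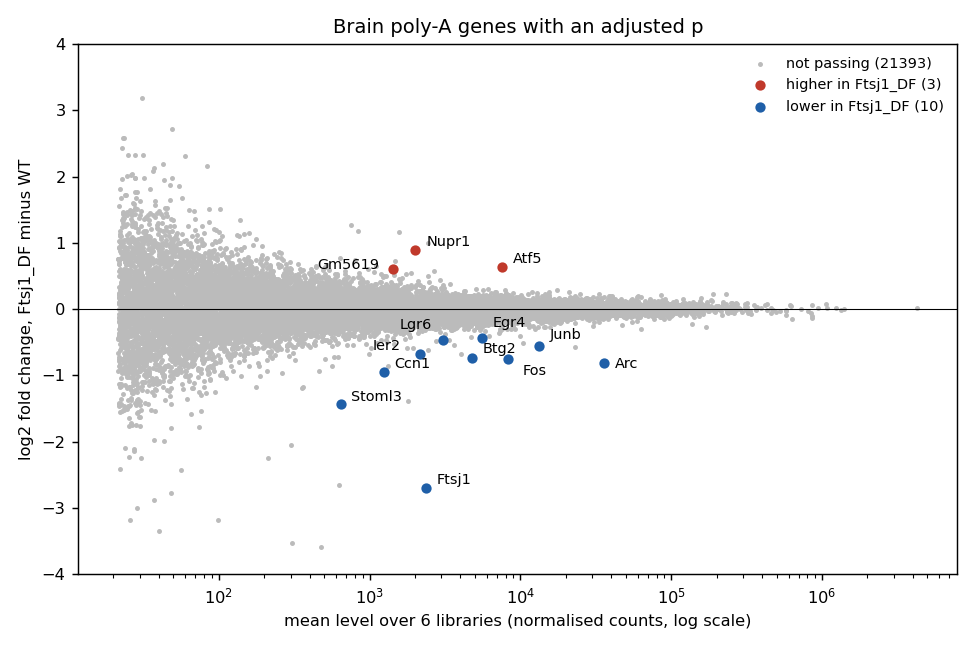
Mean level over the 6 brain poly-A libraries (x axis, normalised counts, log scale) against the log2 fold change of Ftsj1_DF over WT (y axis) for the 21406 tested genes, grey where the authors' adjusted p was 0.05 or more. The 10 genes that fell (blue) and the 3 that rose (red) are labelled, Ftsj1 lies at -2.70, and grey points spread out towards low levels.

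Ftsj1 was the gene furthest from no change by its p. Its level was 15.4% of wildtype (95% interval 13.4 to 17.6%), a log2 fold change of -2.70 ± 0.10 with an adjusted p of 3.89e-157 by the authors' DESeq2 test, which stands as a check of the genotype labels. The implied levels were 4121 in WT and 634 in Ftsj1_DF. Residual reads remained in the Ftsj1_DF brains, and whether they come from a shortened transcript cannot be told from a value per gene. Its partners had nearly equal levels in both genotypes, with log2 fold changes of 0.08 ± 0.11 for Thada and -0.08 ± 0.13 for Wdr6. Of the 10 tested genes for other ribose methyltransferases none passed and 8 had a 95% interval within 0.5 of 0 on the log2 scale. The 10 nearest tested genes on either side of Ftsj1 on the X chromosome were taken by the RefSeq order of another build (GRCm38.p6). They included 0 that passed and 0 with an unadjusted p under 0.05, and their median was -0.022. They ranged from -1.38 to 0.87, and 10 of the 20 had a 95% interval within 0.5 of 0.

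Of the 10 genes that fell, 7 are immediate early genes: Btg2, Egr4, Junb, Fos and Ier2 among the transcription regulators, and Arc and Ccn1 among the effectors. The genes of this group are known for promoters that bind CREB, whose core site reads TGACG and whose full palindromic site, the cAMP response element, reads TGACGTCA and so holds the core site on both strands. The 300 bases from 250 before to 50 after the RefSeq start (GRCm38.p6) are printed for those of the 7 genes in the promoter table, with each core site on either strand in capitals, and for Nupr1, the called gene that rose the most. In Nupr1 the capitals mark the C/EBP-ATF response element, TGATGNAA on either strand, through which ATF4 acts on its targets.
Fos (chr12:85473640-85473939, plus strand): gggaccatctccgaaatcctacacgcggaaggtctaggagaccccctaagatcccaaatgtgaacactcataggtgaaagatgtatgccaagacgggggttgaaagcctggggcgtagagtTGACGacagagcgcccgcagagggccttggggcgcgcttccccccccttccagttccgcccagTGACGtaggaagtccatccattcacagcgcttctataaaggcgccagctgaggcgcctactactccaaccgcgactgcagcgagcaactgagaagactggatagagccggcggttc
Egr4 (chr6:85513540-85513839, minus strand): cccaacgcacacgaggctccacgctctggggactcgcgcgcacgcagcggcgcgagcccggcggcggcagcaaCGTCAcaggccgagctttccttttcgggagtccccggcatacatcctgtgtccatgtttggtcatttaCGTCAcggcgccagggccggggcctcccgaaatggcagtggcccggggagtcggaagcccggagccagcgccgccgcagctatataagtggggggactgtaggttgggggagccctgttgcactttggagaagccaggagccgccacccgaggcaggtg
Junb (chr8:84978699-84978998, minus strand): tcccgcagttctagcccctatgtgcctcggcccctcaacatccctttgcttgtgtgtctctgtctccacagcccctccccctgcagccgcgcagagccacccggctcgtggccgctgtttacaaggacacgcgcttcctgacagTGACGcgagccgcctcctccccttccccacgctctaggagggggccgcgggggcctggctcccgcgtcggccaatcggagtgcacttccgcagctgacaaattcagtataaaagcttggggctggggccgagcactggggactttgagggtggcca
Btg2 (chr1:134079106-134079405, minus strand): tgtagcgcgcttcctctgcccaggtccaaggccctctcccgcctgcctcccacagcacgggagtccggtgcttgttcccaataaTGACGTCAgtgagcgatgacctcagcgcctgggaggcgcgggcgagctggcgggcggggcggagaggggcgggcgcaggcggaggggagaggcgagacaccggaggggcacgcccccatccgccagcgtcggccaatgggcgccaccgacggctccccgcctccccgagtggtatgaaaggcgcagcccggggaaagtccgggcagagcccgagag
Ccn1 (chr3:145649936-145650235, minus strand): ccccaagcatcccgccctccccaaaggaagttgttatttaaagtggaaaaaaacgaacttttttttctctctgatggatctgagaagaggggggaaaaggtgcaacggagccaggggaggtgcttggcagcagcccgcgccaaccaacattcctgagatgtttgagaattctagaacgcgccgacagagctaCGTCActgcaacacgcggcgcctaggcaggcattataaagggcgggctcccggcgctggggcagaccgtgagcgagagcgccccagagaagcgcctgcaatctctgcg
Nupr1 (chr7:126625421-126625720, minus strand): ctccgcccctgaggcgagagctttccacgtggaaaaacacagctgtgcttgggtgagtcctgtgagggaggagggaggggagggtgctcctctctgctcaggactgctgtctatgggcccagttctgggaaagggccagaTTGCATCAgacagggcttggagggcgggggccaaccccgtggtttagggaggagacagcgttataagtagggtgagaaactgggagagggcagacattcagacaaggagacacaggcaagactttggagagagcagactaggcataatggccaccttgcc

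The core site occurred at least once in each of the 5 early gene promoters, and the match in Btg2 was a full site. It was present in 20.8% of all 32851 promoters of this length, in 22 of 30 promoters of the activity-induced transcription factor list (73.3%) and in 23 of 53 of the effector list (43.4%), counting several starts for some genes. The full site occurred in 1.79% of all promoters, in 2 of the 30 and in 6 of the 53. Of the other genes that fell, Ftsj1 had 3 core sites in this window, and Lgr6 and Stoml3 had 0. The ATF element was found in 3.97% of all promoters and in 13 of 43 promoters of 34 ATF4 target genes (30.2%). Nupr1 had 1 match, on the reverse strand 110 bases before the start, and Atf5 had none at either of its starts. These matches describe letters and not binding. The lists were chosen with earlier results of these data known, and their genes are known for such sites. The shares are therefore no independent test of CREB or ATF4.

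Of 27 tested transcription regulators among the early genes 5 fell, 0 rose and 22 did not pass, and 22 of the 27 had a log2 fold change below 0, against 49.2% of all tested genes. The list's median was -0.19 where that of all genes at a mean level of 10 or more was 0.0021. An unadjusted p under 0.05 was reached by 12 members, each of them lower. Of all tested genes 1.33% were lower at this p, and 0.0467% fell.

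Btg2, an antiproliferative co-regulator of transcription and mRNA decay, had implied levels of 5964 in WT and 3565 in Ftsj1_DF, a log2 fold change of -0.74 ± 0.13 (adjusted p = 4.67e-05). Fos, a subunit of AP-1, went from 10462 to 6220 (-0.75 ± 0.16, adjusted p = 0.00816). Junb, a Jun subunit that pairs with FOS, went from 15811 to 10740 (-0.56 ± 0.11, adjusted p = 0.00339). In the Ftsj1_DF brains these 3 genes thus stood at 59.8%, 59.5% and 67.9% of the wildtype level. Ier2, a nuclear early response protein, was at 62.4% (-0.68 ± 0.15, adjusted p = 0.00997). Egr4, a zinc finger factor of the EGR family, was at 73.8% and had the smallest error of the early genes that fell (-0.44 ± 0.085, adjusted p = 0.000928).

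Members that missed the threshold included the orphan nuclear receptor gene Nr4a1 (-0.57 ± 0.15, adjusted p = 0.191), the neuron-specific factor Npas4 (-0.54 ± 0.15, adjusted p = 0.264), Klf2 (-0.58 ± 0.17, adjusted p = 0.362) and Egr2 (-0.66 ± 0.23). Klf2 is also a marker of endothelial cells. Of the 18 endothelial and mural markers, itself included, 0 passed, and the median was 0.032. Members of the same families ranged from such values to about 0. Klf4 had -0.34 ± 0.17 and Fosb -0.29 ± 0.17, while Jun had -0.00 ± 0.10, Jund -0.03 ± 0.10, Egr3 0.04 ± 0.17 and Nr4a2 -0.09 ± 0.10, all named after their values were seen. For Jun, Jund and Nr4a2 the 95% interval lay within 0.5 of 0. For Egr3 it lay within 0.5 as well, whereas that of Nr4a3 (0.06 ± 0.34) did not.

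Among the effectors of neuronal activity 2 of 44 tested genes fell, 0 rose and 42 did not pass. The list's median was -0.11, 30 members were below 0, and 12 had an unadjusted p under 0.05, each of them lower. Of all tested genes 0.0467% fell, 49.2% were below 0 and 1.33% were lower at this p. Arc, a capsid-forming protein that removes AMPA receptors from synapses, had implied levels of 45710 in WT and 26032 in Ftsj1_DF (-0.81 ± 0.15, adjusted p = 0.000233). Ccn1, a secreted protein of the extracellular matrix, went from 1638 to 852 (-0.94 ± 0.17, adjusted p = 8.13e-05). In the Ftsj1_DF brains Arc thus stood at 56.95% and Ccn1 at 52.0% of the wildtype level.

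Other effectors missed the threshold. The MAP kinase phosphatase gene Dusp1 had -0.51 ± 0.13 (adjusted p = 0.0823), the salt-inducible kinase gene Sik1 -0.42 ± 0.11 (adjusted p = 0.158) and Gadd45g, of a family that responds to stress and acts in DNA demethylation, -0.48 ± 0.15 (adjusted p = 0.590). Ccn2, a relative of Ccn1, had -0.30 ± 0.090 (adjusted p = 0.590). Nearer to 0, and named after their values were seen, were the phosphatase genes Dusp4 and Dusp6 with -0.02 ± 0.13 and -0.09 ± 0.12. Chosen in the same way, the values were 0.23 ± 0.15 for the neurotrophin gene Bdnf, 0.03 ± 0.08 for Vgf, 0.14 ± 0.09 for Scg2, -0.13 ± 0.14 for Nptx2 and 0.10 ± 0.15 for the scaffold gene Homer1. The 71 tested genes in both lists make up 0.332% of all tested genes. Of these 71, 24 had an unadjusted p under 0.05 and a lower level, and 0 a higher one. Over all tested genes the shares were 1.33% lower and 1.62% higher. The standard error exceeded the 90th percentile of the 400 genes nearest in level for 37.0% of the regulators and 34.1% of the effectors, against 9.95% of all genes.

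**Figure D2:**
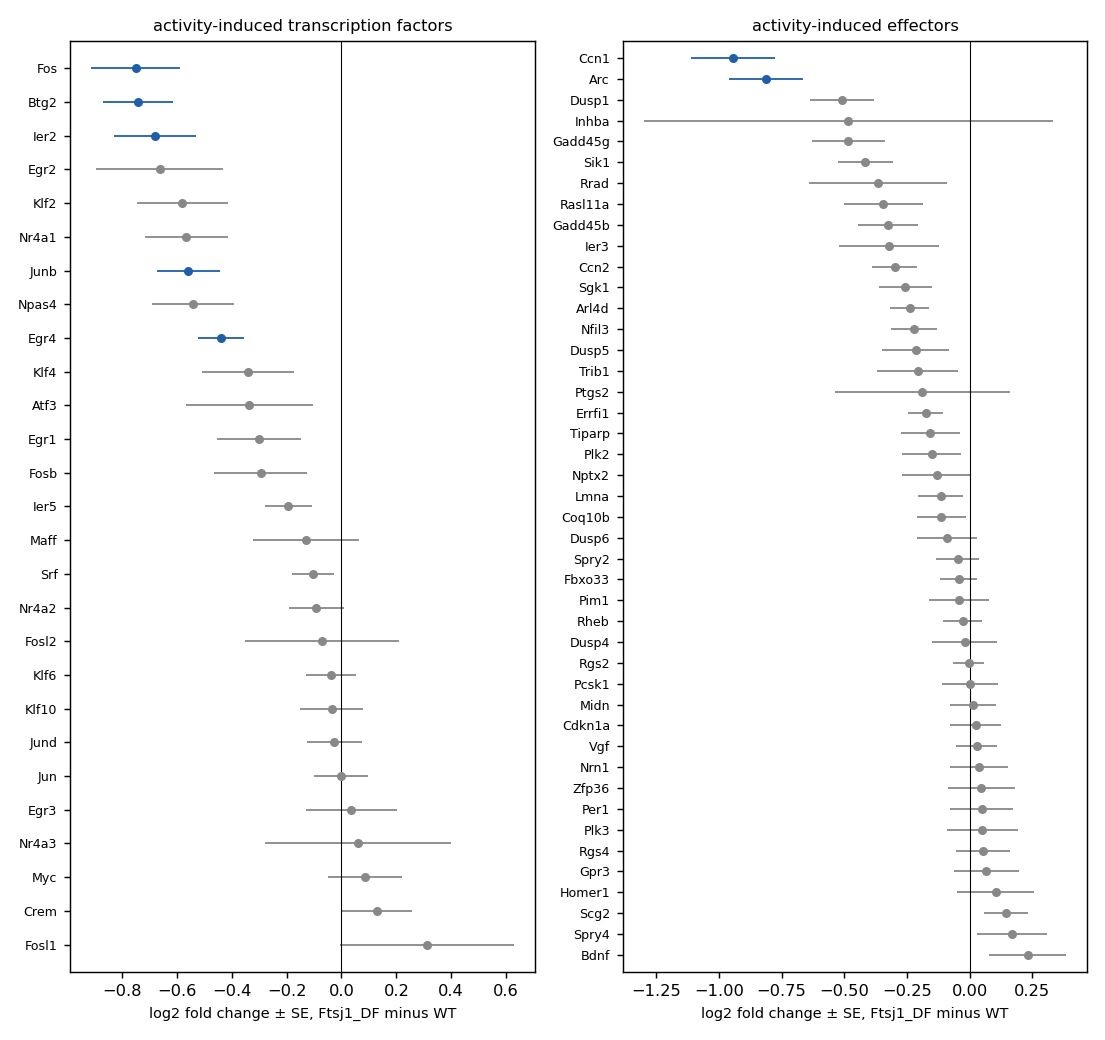
Log2 fold change of Ftsj1_DF over WT in brain (x axis, bars are the standard error) for the tested activity-induced transcription factors (left) and effectors (right), sorted by value. Blue marks the 5 and 2 genes that fell, grey those that did not pass, and Egr3 and Bdnf are among those above 0.

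The genes of the pathway from membrane to nucleus that induces the early genes (receptors, calcium channels, kinases, CREB, SRF and MEF2 factors) had 0 of 33 that passed, a median of 0.045 and 27 members above 0. Their 95% intervals lay within 0.5 of 0 for 32 of the 33, where 62.7% of all tested genes did so. Elk4, an SRF partner, had the smallest p at 0.27 ± 0.18, and the kinase gene Mapk3 had 0.07 ± 0.06. Clock genes and glucocorticoid-induced genes, which also change with time of day and handling, had 0 of 20 and 0 of 22 that passed. The clock median was 0.0037, and the clock repressor Nr1d1 had -0.21 ± 0.09. The glucocorticoid median was -0.052, and Nfkbia, the NF-kB inhibitor, and the kinase gene Sgk1 had -0.27 ± 0.10 and -0.26 ± 0.11. These counts hold for brain alone. Per1, on both lists, had 0.05 ± 0.13 in brain and -1.12 ± 0.18 in heart (adjusted p = 9.83e-07). Pdk4, on the glucocorticoid list, had -0.05 ± 0.11 in brain and 1.09 ± 0.12 in kidney (adjusted p = 8.83e-16). The sources used here state no time of dissection, and a part of time of day or handling was not tested.

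Of the 3 genes that rose, 2 belong to the integrated stress response. Nupr1, a small stress-induced chromatin protein, had implied levels of 1412 in WT and 2620 in Ftsj1_DF, a log2 fold change of 0.89 ± 0.11 (adjusted p = 6.66e-12). Atf5, a bZIP factor that is itself an ATF4 target, went from 5897 to 9198 (0.64 ± 0.14, adjusted p = 0.00592). In Ftsj1_DF they stood at 186% and 156% of wildtype. They were the 2 risen of 41 tested ATF4 targets, of which 39 did not pass and 26 lay above 0, with a median of 0.037. Ddit3, the CHOP factor, had 0.21 ± 0.09, Slc7a11, a cystine transporter gene, 0.18 ± 0.09, and Trib3, a pseudokinase gene, 0.70 ± 0.53. The amino acid genes Asns, Psat1 and Phgdh, named after their values were seen, had -0.04 ± 0.06, 0.08 ± 0.11 and -0.05 ± 0.14, and 32 members in all had an interval within 0.5 of 0.

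The regulators of the response gave no further call beyond Nupr1 and Atf5 among 22 tested, with Atf4 itself at -0.00 ± 0.06 in mRNA. Of 19 endoplasmic reticulum chaperone genes 0 passed and all 19 had an interval within 0.5 of 0, the reticulum chaperone gene Hspa5 with 0.03 ± 0.12. Of 18 cytosolic heat shock genes 0 passed, and Hspb1, a small heat shock protein gene, had the smallest p (-0.53 ± 0.23). The third gene that rose, Gm5619, is a pseudogene in RefSeq (0.60 ± 0.14, adjusted p = 0.0174). Its reads may be shared with a near-identical gene, so that its value is uncertain.

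Interferon-stimulated genes, antiviral genes induced by interferons, had 0 of 56 tested that passed. Their median was 0.29, and 53 of the 56 lay above 0 against 50.8% of all tested genes. An unadjusted p under 0.05 with a higher level was found for 19, against 1.62% of all tested genes, and with a lower level for 0. The standard error exceeded the 90th percentile of genes of their level for 26.8% of the list, against 9.95% of all genes. Parp14, an ADP-ribosyltransferase, had 0.53 ± 0.14 (adjusted p = 0.199), the master regulator Irf7 0.77 ± 0.25 and the antiviral enzyme gene Rsad2 0.67 ± 0.23. Their summed level came to 115% of wildtype in Ftsj1_DF, computed over 56 genes from the implied levels. The microglia markers, cells that express many of these genes, had 0 of 15 that passed, a median of -0.035 and a summed level of 98.5% of wildtype, and P2ry12 and Itgam were listed at 0. In whole tissue fewer cells of a type and less RNA per cell cannot be told apart. In heart, kidney, liver and spleen the medians of the same 56 genes were 0.27, 0.16, 0.24 and 0.15 with 3, 1, 5 and 0 that rose. Of all tested genes in these organs 0.541%, 0.987%, 2.29% and 0.0741% were called in either direction. The organs come from the same 6 mice.

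**Figure D3:**
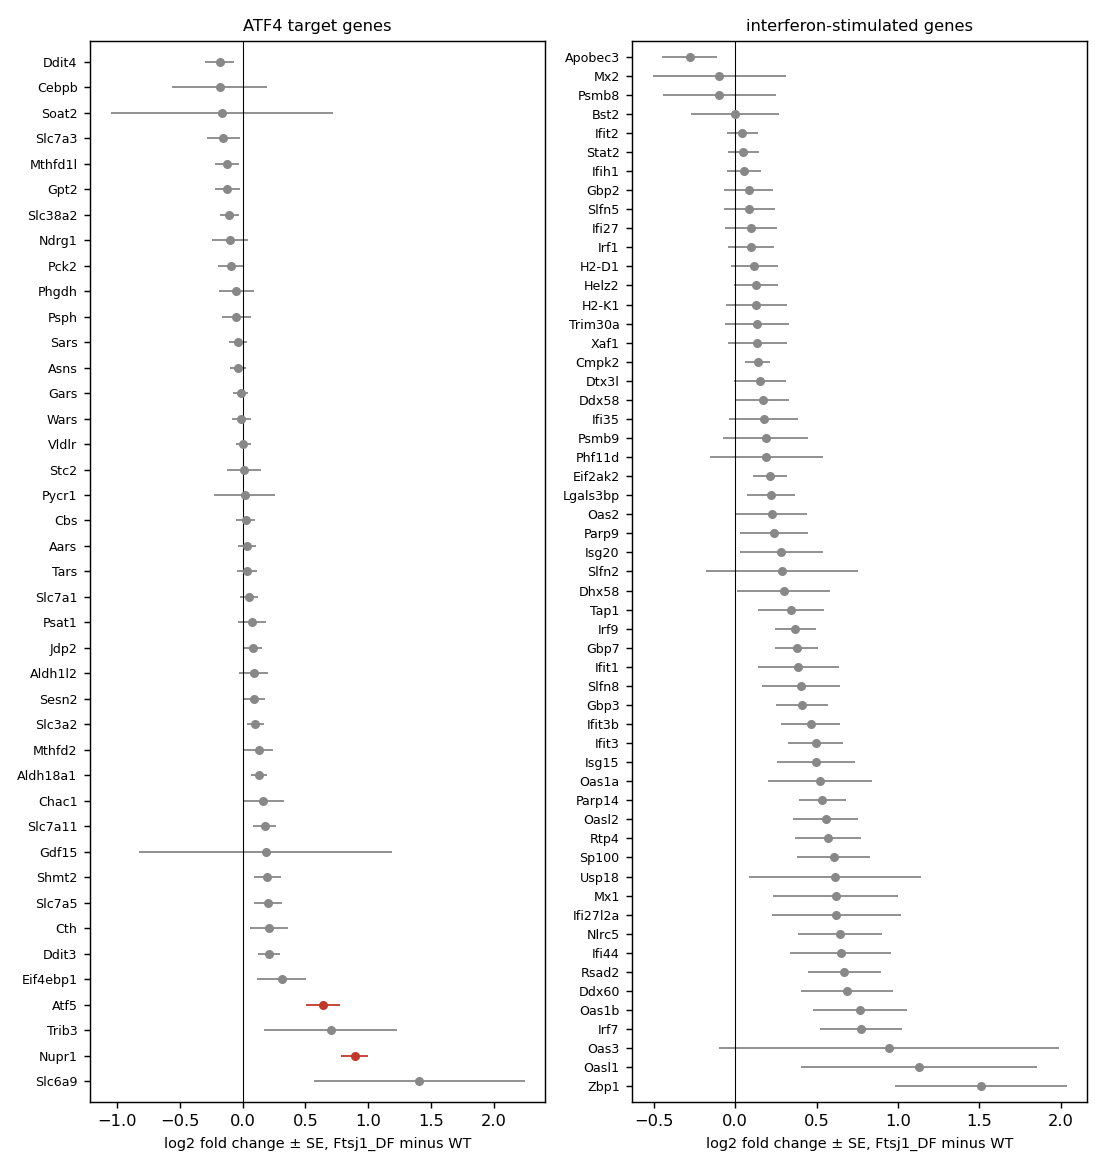
Log2 fold change of Ftsj1_DF over WT in brain (x axis, bars are the standard error) for the tested ATF4 target genes (left) and 55 interferon-stimulated genes (right), sorted by value. Red marks Nupr1 and Atf5, the only genes drawn that passed, and 52 of the 55 interferon-stimulated genes drawn lie above 0.

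Stoml3 and Lgr6 were the remaining genes that fell. Stoml3, a stomatin-family membrane protein that tunes mechanosensitive channels in sensory neurons and is abundant in olfactory sensory neurons, had implied levels of 940 in WT and 347 in Ftsj1_DF (-1.44 ± 0.34, adjusted p = 0.0404). Its standard error was 1.87 times the median of the 400 genes nearest in level. No other gene of the stomatin and mechanosensation list, with 11 tested, passed, and Stom had -0.15 ± 0.14. Among 19 tested olfactory bulb and epithelium markers Stoml3 was the single one that fell, while 17 of the 19 lay below 0 and the median was -0.28. Gfy, a gene of olfactory sensory neurons, had -2.25 ± 0.57 (adjusted p = 0.0977), and Sp8 and Th, markers of bulb interneurons, had -0.31 ± 0.14 and -0.40 ± 0.18. The summed level of the list was 132599 in WT and 128710 in Ftsj1_DF, of which Gnal and Kctd12 made up most. Gnal, which is also on the striatal list, had implied levels of 49060 in WT and 52313 in Ftsj1_DF, and Kctd12 35735 and 35103. This sum therefore says little about the other members. Omp, the defining marker of the sensory neurons, was listed at 0. The part in Stoml3 of how much olfactory tissue each brain carried was not tested.

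Lgr6, a receptor for R-spondins, which strengthen Wnt signalling, went from 3559 to 2582 (-0.46 ± 0.11, adjusted p = 0.0325). Of the 14 tested genes of Lgr receptors, R-spondins and their targets, 13 did not pass, and the median was 0.0064. The Wnt target Axin2 had -0.19 ± 0.09, the receptor gene Lgr5 -0.21 ± 0.12 and the ligand gene Rspo2 -0.18 ± 0.11.

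Beyond the called genes, the 20 with the smallest p that did not pass included 16 that were lower, and 7 of the 20 are on the activity lists. Gata2 and Sox18, transcription factor genes known from blood vessel cells, had 0.52 ± 0.13 and 0.54 ± 0.13, each with an adjusted p of 0.0823. Scgn, a calcium sensor of interneurons, had -0.87 ± 0.23 (adjusted p = 0.157), Pomc, the hypothalamic and pituitary prohormone gene, -1.18 ± 0.35 (adjusted p = 0.588), and Mgp, a matrix protein gene of meninges and vessels, -0.62 ± 0.17 (adjusted p = 0.289). Vipr2, a receptor gene for the peptide VIP, had -0.35 ± 0.098 (adjusted p = 0.268), Tob2, a relative of Btg2, -0.34 ± 0.097 (adjusted p = 0.369), and Car13, a carbonic anhydrase gene, -0.53 ± 0.16 (adjusted p = 0.590). Fmo6 (-2.87 ± 0.76, adjusted p = 0.158), the pseudogene Gm10359 (-0.93 ± 0.25, adjusted p = 0.191) and the long non-coding RNA Gm5401 (implied levels of 0.699 in WT and 32.8 in Ftsj1_DF, with no adjusted p) complete the 20 together with the genes named above.

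Of 78 tested tRNA modification enzyme genes 0 passed, the median was -0.012, and 73 had a 95% interval within 0.5 of 0. Cdk5rap1, which modifies mitochondrial tRNAs, had the smallest p at -0.47 ± 0.20, followed by Trmo (-0.45 ± 0.21). All 19 cytosolic aminoacyl-tRNA synthetase genes had an interval within 0.5 of 0, with a median of -0.0048, and so did 16 of 17 mitochondrial ones. The 13 mRNAs of the mitochondrial genome lay within 0.5 of 0 in each case.

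Cytosolic ribosomal protein genes had 0 of 74 that passed, a median of -0.11 and 60 below 0, and Rps2 had the smallest p (-0.27 ± 0.12). Nuclear respiratory chain genes had 0 of 73 that passed, a median of -0.078 and 59 below 0, among them Ndufb9 with -0.23 ± 0.12. Members over the 90th percentile of the standard error among genes of their level made up 26.3% and 35.6% of these lists, against 9.95% of all genes. The medians in heart, kidney, liver and spleen were 0.30, 0.11, -0.066 and 0.088 for the ribosomal protein genes, and 0.27, 0.081, -0.12 and 0.24 for the respiratory chain. Whether such differences between organs exceed the spread between mice was not tested for lists.

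Synaptic genes showed no call. All 25 presynaptic vesicle genes and all 28 postsynaptic density genes had a 95% interval within 0.5 of 0, with medians of 0.012 and 0.040. Snap25, of the vesicle fusion complex, had 0.06 ± 0.06, and Gabrb2, a subunit of the GABA-A receptor, -0.09 ± 0.08. Of 60 genes of X-linked intellectual disability, the class to which Ftsj1 belongs, 0 passed and 57 had such an interval, and Ap1s2, an adaptor of vesicle coats, had the smallest p (0.22 ± 0.09).

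Marker lists served to check the tissue. Defining genes of brain had high mean levels, with 612909 for Snap25, 433334 for the excitatory neuron kinase gene Camk2a and 264535 for the astrocyte enzyme gene Glul. The 17 cortical and hippocampal excitatory neuron markers, 15 interneuron markers, 15 astrocyte and 18 oligodendrocyte markers had 0 that passed and medians of 0.010, -0.042, -0.043 and -0.027. All 15 astrocyte and all 18 oligodendrocyte markers had an interval within 0.5 of 0. Striatal markers lay above 0 in 18 of 18 with a median of 0.12, and 0 passed, with Pdyn, the dynorphin gene, at 0.19 ± 0.10. Cerebellar markers had a median of -0.020 over 13 tested genes, Pcp2, Cbln1 and Neurod1 being listed at 0. Thalamic and hypothalamic markers had a median of -0.0022 over 19, with Avp, the vasopressin gene, at -1.39 ± 0.45 and Otp at 0.65 ± 0.24. Midbrain and hindbrain monoamine markers had a median of 0.20 over 12, with the serotonin genes Tph2 and Slc6a4 at 1.00 ± 0.43 and 1.16 ± 0.50. The acetylcholine gene Chat and the dopamine genes Th and Slc6a3 lay on the other side, at -0.29 ± 0.13, -0.40 ± 0.18 and -0.69 ± 0.80. The meningeal list had 0 of 13 that passed and a median of -0.013. Its summed level was 86.9% of wildtype in Ftsj1_DF, of which Ptgds, with implied levels of 147053 in WT and 125705 in Ftsj1_DF, made up most. Pituitary and pineal markers had 0 of 7 that passed and a median of -0.34 over the 9 at a level of 10 or more, which turned to 0.13 at a level of 100 or more. Aanat, a pineal enzyme gene, had 1.02 ± 0.35. Blood cell markers had 0 of 16 that passed and a median of -0.069.

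Markers of single regions, and some other lists, had wide standard errors for their level. Ranked by standard error among the 400 genes nearest in level, the top 10 at a mean level of 100 or more were the growth hormone gene Gh, at 14.1 times the local median, and then Ttr, Bpifb9b, Bpifb3, Slc6a3, F5, Kcne2, Bpifb9a, Kl and Tmem72, at 7.26 to 8.73 times. Ttr, Kl and Kcne2 are choroid plexus genes, and Slc6a3 is the dopamine transporter gene. The share of members over the 90th percentile was 83.3% for monoamine, 80.0% for choroid plexus, 72.2% for striatal, 69.2% for cerebellar, 68.4% for thalamic and hypothalamic and 63.2% for olfactory markers. Wide errors were not particular to regions. The share was 72.2% for oligodendrocyte markers, 53.8% for mRNAs of the mitochondrial genome and 50% for blood cell markers. It was 3.85% for tRNA modification enzymes and 0 for cytosolic synthetases. For Ttr the fold change was -0.27 ± 0.66, and only 3 of 15 choroid plexus and 0 of 12 monoamine markers had an interval within 0.5 of 0. For most choroid plexus and monoamine markers a difference between the genotypes was thus not detectable at a size that other genes of the same level would show.

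In 6 genes with reads the authors' p was empty, which DESeq2 writes where 1 library holds an extreme count: Bpifa1, Gh, Hoxb8, Hoxb7, Ighv1-82 and Igkv10-94. Bpifa1, a secreted protein of the airway and nasal lining, had a mean level of 307 in brain and 1251 in heart. Its log2 fold change in brain, -5.27 ± 1.75, rests on such an extreme count. Bpifb9b, Bpifb9a and Bpifb3 had -3.59 ± 1.79, -3.53 ± 1.88 and -0.66 ± 3.05. A part of the amount of nasal tissue in these values was not tested. Gh had 285, and Hoxb8 and Hoxb7, which mark spinal cord and hindbrain in nervous tissue, had 263 and 40.7.

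**Figure D4:**
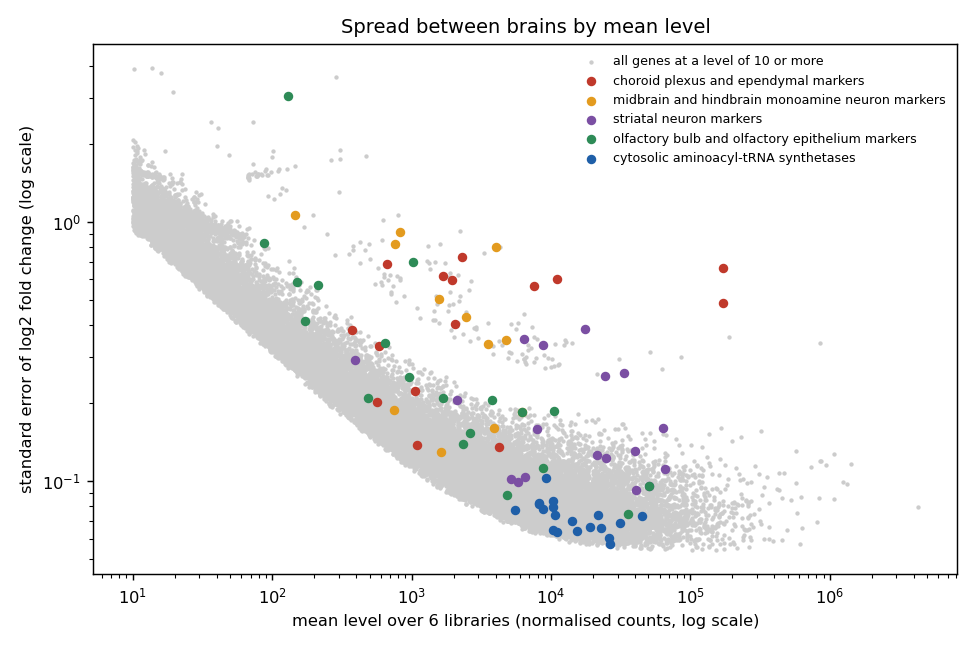
Mean level (x axis, normalised counts, log scale) against the standard error of the log2 fold change (y axis, log scale) for brain genes at a level of 10 or more, with 5 lists in colour. Choroid plexus, monoamine, striatal and some olfactory markers lie above the cloud of genes of their level, and the cytosolic aminoacyl-tRNA synthetases lie within it.

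The 13 genes were then followed in the other organs of the same mice. The share of tested genes that the authors' tables called was 0.541% for heart, 0.987% for kidney, 2.29% for liver and 0.0741% for spleen, against 0.0607% for brain. Whether a change in brain differed from that in another organ was tested with the difference of the 2 log2 fold changes over its standard error, adjusted by Benjamini-Hochberg over all genes at a level of 10 or more in both, with errors taken as independent although the mice are the same. By this test 19 genes differed from heart (0.0987% of 19258), 47 from kidney (0.224% of 20968), 98 from liver (0.531% of 18453) and 3 from spleen (0.0152% of 19747).

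Of the early genes that fell in brain, Fos, Ier2, Arc and Btg2 differed from at least 1 other organ. Fos was higher in Ftsj1_DF in the other 4 organs, by 0.88 ± 0.21 in kidney, where it rose, 0.74 ± 0.28 in spleen, 0.34 ± 0.39 in heart and 1.95 ± 0.87 in liver. Brain differed from kidney by -1.63 (adjusted p = 1.77e-06) and from spleen by -1.49 (adjusted p = 0.0345), while the differences from heart and liver did not pass. With the correlation of the test statistics between the organs taken into account, the difference from spleen no longer passed (adjusted p = 0.0801). Ier2 was likewise above 0 in the other 4 organs and differed from heart by -1.26 (adjusted p = 0.00825) and from kidney by -0.83 (adjusted p = 0.0222). Arc had 0.05 ± 0.12 and Btg2 -0.03 ± 0.10 in kidney, and each differed there (-0.86 and -0.72, adjusted p = 0.00649 for both). For Ccn1, Egr4 and Junb no difference passed, though that of Ccn1 from liver did with the correlation (adjusted p = 0.0960 without and 0.0420 with it). Ccn1 had -0.38 ± 0.14 in kidney and Junb 0.28 ± 0.24 in heart, and Egr4 reached a level of 10 outside brain only in spleen, with 11.7.

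Atf5 and Nupr1 had log2 fold changes above 0 in all 5 organs. Atf5 had 0.64, 0.44, 0.35, 0.42 and 0.23 in brain, heart, kidney, liver and spleen, passed in brain and kidney, and differed in none of the 4 comparisons. Nupr1 had 0.21 ± 0.17 in heart and 0.22 ± 0.12 in kidney. In spleen it had 0.20 ± 1.24 and in liver 3.32 ± 1.16. It passed in brain alone of the 5, and differed between brain and kidney by 0.67 (adjusted p = 0.0178). Ftsj1 fell in all 5 organs, and its fold change was smaller in brain than in liver (-3.51 ± 0.15) by 0.81 (adjusted p = 0.00427). For Gm5619, Lgr6 and Stoml3 no difference between brain and another organ passed.

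**Figure D5:**
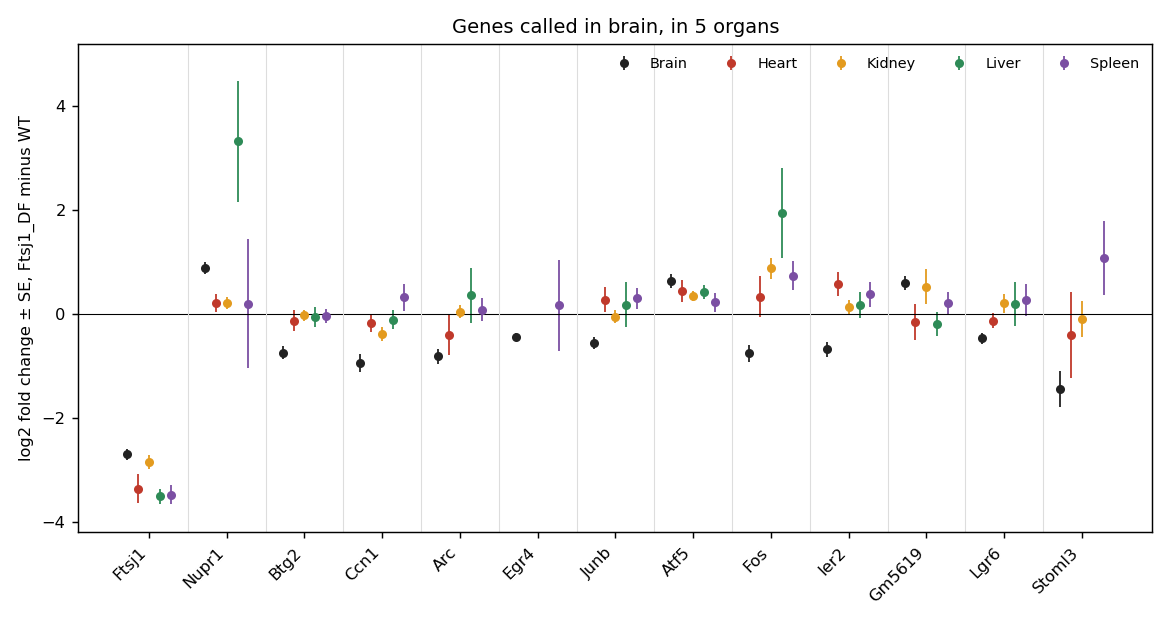
Log2 fold change of Ftsj1_DF over WT (y axis, bars are the standard error) of the 13 genes called in brain, in 5 organs (colours), drawn where the mean level was 10 or more. Fos and Ier2 lie below 0 in brain and above it in the other 4 organs, Atf5 lies above 0 in all 5, and the liver and spleen values of Nupr1 have long bars.

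Long non-coding RNAs could be read in a second library kind, since the same brains also gave rRNA-depleted libraries. In the poly-A table the nuclear and imprinted long non-coding RNAs had 0 of 19 tested that passed, a median of 0.14 and 17 above 0. Rian, from the imprinted Dlk1-Dio3 locus, had 0.18 ± 0.09 there and 0.13 ± 0.13 in the depleted libraries, and Ftx, from the X inactivation centre, 0.30 ± 0.16 and 0.10 ± 0.15. Malat1, a nuclear speckle RNA, had 0.14 ± 0.14 and -0.07 ± 0.14. Small nucleolar RNA host genes had 0 of 13 that passed and a median of -0.061 in the poly-A table, with Snhg10 at -0.35 ± 0.18 there and -0.14 ± 0.15 in the depleted libraries.

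There were 3488 long non-coding RNAs at a level of 10 or more in both tables. Of these 110 had an unadjusted p under 0.05 in the poly-A table and 149 in the depleted one, and 6 in both, with the same sign each time, which is 5.45% of the first set and 4.03% of the second. Over all 3488 the share under 0.05 was 4.27% in depleted and 3.15% in poly-A libraries, near that of the overlap, so that it is no result about these RNAs. They were BC051077 (-3.18 ± 1.12 and -2.17 ± 0.71 in poly-A and depleted libraries), Gm30504 (-0.93 ± 0.29 and -0.50 ± 0.22), Evx1os (1.25 ± 0.47 and 0.91 ± 0.37), Gm31456, Gm42047 and Gm26748. None of the 6 passed after adjustment in either table. The depleted table called 1 of 9249 tested (0.0108%), Gm13648 at -2.60 ± 0.55 (adjusted p = 0.0181). In the poly-A libraries it had a mean level of 1.08, too low for an adjusted p, and -3.13 ± 3.94 (unadjusted p = 0.427 by the authors' DESeq2 test).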

How the data were processed

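Poly-A libraries of whole brain from 3 Ftsj1_DF and 3 WT mice were compared, and the same comparison in heart, kidney, liver and spleen and the long non-coding RNA table of rRNA-depleted brain libraries were set beside it. Per the labels' protocols, stranded libraries were made from phenol-extracted RNA of frozen, milled tissue. The submitters' processing notes name the build GRCm39, featureCounts, Subread 2.0.3 and DESeq2. The aligner, the annotation and the strand setting count as not given in the sources used here. Genes that overlap, run antisense or have near-identical copies are therefore uncertain.

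As deposited, the signal of a gene is its normalised count averaged by the authors over the 6 libraries with DESeq2 (column names in the file). Its log2 fold change and the standard error of that change were likewise deposited by the authors from DESeq2, without shrinkage. The authors' test score, the Wald statistic, equalled the fold change over its standard error within 2.31e-14. Each p-value, raw or adjusted by Benjamini-Hochberg, is the authors' own, and the adjusted value is empty for 12858 genes of low level. An entry without a name took 0.000198% of the summed level and was left out. Depth per library is unknown, and only ratios of size factors were recovered, from genes with 1 read in 1 library. With no value per library, no count model, litter term or omission of a mouse could be fitted, and p-values measure the spread between these 6 libraries.

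Computed here with Python 3.11.15, pandas 2.3.3, numpy 2.4.6 and scipy 1.17.1 (figures with matplotlib 3.10.9) were list counts and medians, over members at a mean level of 10 or more, 95% intervals, differences between organs, ranks of standard errors and motif matches. The steps were tested on simulated data. Of 1047 list symbols 1000 matched directly and 38 by synonym, 1 was a duplicate and 8 did not match. The table lists some genes at 0, such as B2m and Ifitm3 among interferon-stimulated genes, and these could not be tested. Promoters are RefSeq's on GRCm38.p6, a build other than the authors', and 10 of the 13 called genes had one.

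The members and the 40 gene lists were chosen with earlier results of these data known. Named are Ftsj1, Thada and Wdr6, all called genes, the 20 next by p, up to 6 members of a list by smallest p, the 10 genes with the widest standard error for their level, genes with an empty p, up to 6 genes per organ that differ from brain, and long non-coding RNAs with p under 0.05 in both library kinds. Members named beyond this rule were chosen after their values were seen, among them the choroid plexus gene Ttr, Stom, Atf4, Hspa5, Camk2a, Snap25 and Glul where they stand outside the smallest p. Some genes that this rule names are not reported here. Alternatives varied the threshold, the filter, the null, the scaling and the correlation between organs.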

Additional observations from a re-analysis of the deposited data

Results flagged for a closer look

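Each of the following is a log2 fold change in brain minus that in another organ of the same mice, flagged because the test of the difference passed (normal test on the deposited values, Benjamini-Hochberg over all genes at a level of 10 or more in both organs). Of the genes called in brain, Fos differed from kidney (-1.63, adjusted p = 1.77e-06) and spleen (-1.49, adjusted p = 0.0345, but 0.0801 with the correlation between the organs taken into account), and Ier2 from heart (-1.26, adjusted p = 0.00825) and kidney (-0.83, adjusted p = 0.0222). From kidney also differed Arc (-0.86, adjusted p = 0.00649), Btg2 (-0.72, adjusted p = 0.00649) and Nupr1 (0.67, adjusted p = 0.0178), and from liver Ftsj1 (0.81, adjusted p = 0.00427).

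The other genes did not pass in brain. Against heart, Gadd45g had the opposite sign (-1.12, adjusted p = 0.00519; brain -0.48 ± 0.15, heart 0.63 ± 0.18). The clock gene Per1 differed by 1.17 (adjusted p = 0.000645) and Ano5, a membrane protein gene of muscle, by 1.73 (adjusted p = 2.57e-05). Armcx4 differed by -0.80 (adjusted p = 0.00156) and Slc12a5, a neuronal chloride transporter gene, by -1.08 (adjusted p = 0.00519).

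Against kidney, the neuronal genes Cntnap5a and Synpr differed by 2.50 and 2.78 (adjusted p = 8.54e-25 and 1.47e-12) and Gm49692 by 2.58 (adjusted p = 5.24e-11). They had between -0.01 and 0.23 in brain and between -2.79 and -2.34 in kidney. The kinase gene Pdk4 differed by -1.14 (adjusted p = 1.51e-08), with 1.09 ± 0.12 in kidney.

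Against liver, the acetyltransferase gene Nat8f7 differed by 3.33 (adjusted p = 1.95e-11) and the peptidase gene Trhde by 1.66 (adjusted p = 7.88e-08). Ntrk2, the BDNF receptor gene, differed by 1.41 (adjusted p = 1.87e-07) and the water channel gene Aqp4 by 1.51 (adjusted p = 1.13e-06). Dpy19l3 differed by 1.32 (adjusted p = 1.22e-06) and Rab11fip4 by -0.94 (adjusted p = 1.96e-06). In brain Ntrk2 and Aqp4 had 0.05 ± 0.08 and -0.00 ± 0.07.

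Against spleen, Hspb1 differed by -1.63 (adjusted p = 0.000617; brain -0.53 ± 0.23, spleen 1.095 ± 0.18) and Nog, a BMP antagonist gene, by -1.21 (adjusted p = 0.0452). No explanation of these differences was tested.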

How the results depend on the processing

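The 13 calls were 10 at an adjusted p under 0.01, 17 under 0.10, 11 without the authors' filter on low levels and 13 with a minimum level of 10 or 100 or with centred fold changes. They were 27 with a null scaled to the observed spread of the Wald statistic, all 13 among them (7 higher, 20 lower), 7 under Bonferroni and 2, Ftsj1 and Nupr1, when tested against a change of at least 0.25 on the log2 scale. Over 117 alternatives for single genes 22 lost the call, most often for Lgr6 and Stoml3 (4 settings each). The direction was not put to a test by them, since only centring altered a fold change, and that slightly (Ftsj1 from -2.699 to -2.701). All 120 alternatives for list medians stayed within the lists' median standard error, and 1 changed sign, that of the pituitary and pineal markers (-0.34, and 0.13 at a level of 100 or more, with a median standard error of 0.51). That bound is the error of single genes and not of a list median. Staying within it therefore does not show that a median was stable. Of the 3 genes that differed between brain and spleen 1, Hspb1, remained with the correlation between organs taken into account (adjusted p = 0.00229), and the counts for the other organs moved by less than 1.5 times. Fos against spleen was lost by this (adjusted p = 0.0801) and Ccn1 against liver was gained (0.0420). Long non-coding RNAs with p under 0.05 in both library kinds were 8 with no minimum level. The cause of these shifts was not tested. No paired analysis was possible because the tables hold no value per library, and for the same reason no mouse could be left out.

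Genes under a mean level of 100 had a 95% interval within 0.5 of 0 in 0 of 3496 cases, those from 100 to 1000 in 24.1%, those from 1000 to 10000 in 92.7% and those above in 99.2%, so a miss at low level says little.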
